A study of Mus musculus with 6 samples.

Results

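The data described here are the levels of 8 genes of the transforming growth factor beta (TGF-beta) pathway in freshly isolated mouse brain cells. They comprise the ligands *Tgfb1*, *Tgfb2* and *Tgfb3*, the receptors *Tgfbr1*, *Tgfbr2* and *Tgfbr3*, and the intracellular mediators *Smad3* and *Smad7*. The genes were taken by symbol from a fixed list, and all 8 were found among the 27514 genes listed for both tissues. Single-cell RNA sequencing was performed on cortices of C57Bl/6J mice aged 3 weeks (prep 1) and on hippocampi of C57Bl/6J mice aged 5 weeks (prep 3). The mice were female and no treatment or genetic change is named for either group. In each preparation the cells of 3 mice were pooled into 1 suspension after enzymatic digestion and myelin removal, and sequenced as 3 technical replicates, giving 6 libraries. Each group is thus 1 biological sample, and region, age, preparation and the gene annotation of the counts change together and cannot be told apart. No p-value was computed, and the spread given is the SD over 3 technical replicates or a 95% interval that covers counting error only.

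TGF-beta ligands are made as latent precursors that stay bound to a propeptide until they are released, often with the help of integrins and latency-binding proteins. The released ligand assembles a type II receptor (*Tgfbr2*) with a type I receptor (*Tgfbr1*), which phosphorylates receptor-regulated Smads such as *Smad3*, while *Smad7* is induced by the signal and blocks the receptor. In the brain this pathway is known for keeping microglia in their homeostatic state and for the formation and stability of vessels. A cell class that carries ligand RNA is called a sender here and one that carries receptor RNA a receiver. Both words describe RNA levels, since neither secreted ligand nor receptor protein was measured.

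Of 33273 deposited barcodes, 27530 passed the filters on gene number and mitochondrial share, 13320 from the cortex and 14210 from the hippocampus. The libraries held between 39662203 and 50024850 unique molecular identifiers (UMIs, each marking 1 captured RNA molecule), and the median depth per kept cell ranged from 5800 to 6914 UMIs. Clusters carry -like names, which rest on marker genes alone. The cortex held 6153 microglia-like, 2740 astrocyte-like, 2711 endothelial-like, 210 vascular smooth muscle (VSMC)-like, 165 pericyte-like, 110 macrophage-like, 79 fibroblast-like and 58 monocyte-like cells. The hippocampus held 5826 microglia-like, 2136 endothelial-like, 1974 astrocyte-like, 437 pericyte-like, 147 macrophage-like, 101 VSMC-like and 50 fibroblast-like cells. It further held 1146 oligodendrocyte-like cells, 474 oligodendrocyte precursor (OPC)-like cells and 826 epithelial-like cells with choroid plexus markers. In the hippocampus 749 kept barcodes (5.27%) also occurred in another library of that group, against 71 (0.533%) in the cortex. These barcodes made up 67.6% of the epithelial-like, 40.2% of the monocyte-like and 21.3% of the ependymal-like cells, whose values are therefore also given without them.

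Levels are given as CPM, the share of a gene among all UMIs of the same cells on the usual scale of that unit, from counts summed per class and library. Only the 3′ end of each RNA was counted, so a level is compared between classes for 1 gene and not between genes. Neighbours in the order of classes are called apart when neither the ranges of their 3 libraries nor their Poisson intervals overlap. Droplets also take up free RNA. Its level was estimated from the markers of the class where a gene was highest, and a level of at most 2 times this estimate is called background. This counts 1 source class, so for several genes carried by more than 1 class the sum over all source classes is given as well.

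*Tgfb1* lies on chromosome 7 of GRCm38 from 25687002 to 25705077 on the plus strand (ENSMUSG00000002603), *Tgfb2* on chromosome 1 from 186622792 to 186705989 on the minus strand (ENSMUSG00000039239), and *Tgfbr1* on chromosome 4 from 47353222 to 47414931 on the plus strand (ENSMUSG00000007613). The 250 bases before the start of these 3 genes are shown because they set out the main contrast of the levels, *Tgfb1* and *Tgfbr1* carried by microglia-like and *Tgfb2* by vascular cells. The sequences are from RefSeq on GRCm38.p6, given 5′ to 3′ on the strand of the gene. Capitals mark each GTCT or AGAC, the core of the Smad-binding element on either strand, and each GAGGAA or TTCCTC, an ETS-like motif as PU.1 binds in microglia. The 2 motifs share no letters here.
Tgfb1 (chr7:25686752-25687001): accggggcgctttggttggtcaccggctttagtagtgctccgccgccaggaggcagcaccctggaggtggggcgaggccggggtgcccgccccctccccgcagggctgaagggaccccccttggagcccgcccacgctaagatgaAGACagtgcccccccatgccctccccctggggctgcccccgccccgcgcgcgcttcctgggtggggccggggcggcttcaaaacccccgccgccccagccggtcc
Tgfbr1 (chr4:47352972-47353221): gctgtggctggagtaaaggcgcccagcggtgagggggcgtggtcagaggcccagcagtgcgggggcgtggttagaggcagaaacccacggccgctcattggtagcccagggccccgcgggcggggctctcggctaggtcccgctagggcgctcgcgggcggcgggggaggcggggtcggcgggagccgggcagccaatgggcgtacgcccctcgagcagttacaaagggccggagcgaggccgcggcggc
Tgfb2 (chr1:186705990-186706239): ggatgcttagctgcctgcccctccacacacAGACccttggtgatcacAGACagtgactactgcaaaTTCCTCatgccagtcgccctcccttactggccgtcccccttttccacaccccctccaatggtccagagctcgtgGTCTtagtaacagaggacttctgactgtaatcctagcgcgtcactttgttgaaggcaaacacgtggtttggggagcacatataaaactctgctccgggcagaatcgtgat
The window of *Tgfb1* held 1 Smad box and no ETS-like motif, that of the first *Tgfbr1* start held neither, and that of *Tgfb2* held 3 Smad boxes and 1 ETS-like motif. Of 32851 mouse promoter windows, 82.9% held the Smad box, with a median of 2 matches, and 23.3% held the ETS-like motif. The window of *Tgfb2* also overlaps *Gm29491* on the opposite strand. The GC content was 75.2% for *Tgfb1*, 74.8% for *Tgfbr1* and 53.6% for *Tgfb2*. A second RefSeq start of *Tgfbr1* lies within the gene, and its window (chr4:47385966-47386215, GC 52.8%) held 2 Smad boxes and 1 ETS-like motif. Which start the counted RNA came from was not tested. These letters describe the windows and say nothing about the binding of a factor.

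Among the ligands, *Tgfb1*, the main TGF-beta of immune cells, was carried by microglia-like cells. Its level there was 340.2 ± 12.4 CPM in the cortex (SD, n = 3 technical replicates), with 326, 345 and 349.5 CPM in the 3 libraries. In the hippocampus it was 432 ± 3.20 CPM, with 430.1, 430.1 and 436 CPM. Every hippocampal library thus lay above every cortical one. Microglia-like cells held 73.0% of all *Tgfb1* UMIs of the cortical suspension and 81.8% of those of the hippocampal one, against 37.6% and 34.8% of the UMIs of all genes. A UMI of *Tgfb1* was found in 81.6% of the cortical microglia-like cells (80.6% to 82.6%, exact Clopper-Pearson interval) and in 28.9% after thinning each cell to 1000 UMIs. The hippocampal shares were 92.6% (91.9% to 93.3%) and 34.8%.

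Other blood-lineage and vascular classes carried less *Tgfb1*. Cortical monocyte-like cells reached 328 CPM, but their libraries were at 188, 361 and 449 CPM, so this level was not apart from that of microglia-like cells. Macrophage-like cells were at 202 CPM in the cortex and 271 CPM in the hippocampus. Pericyte-like cells followed at 147 and 143 CPM and endothelial-like cells at 110.4 and 117 CPM, which was 3.08 and 3.70 times lower than in microglia-like cells. Endothelial cells therefore were a second source of *Tgfb1* RNA, holding 16.5% of its UMIs in the cortex and 8.67% in the hippocampus. In astrocyte-like cells *Tgfb1* was at 11.5 and 21.1 CPM, at the level of free RNA, which was estimated at 8.62 and 16.6 CPM. A UMI was found in 4.197% and 6.48% of the astrocyte-like cells, whose median depths were 6495 and 6704.5 UMIs against 5474 and 6644 in microglia-like cells.

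*Tgfb2*, a ligand known from vessel and heart development, was carried by vascular cells and astrocytes and almost absent from microglia. In the cortex it was highest in VSMC-like cells at 231 ± 7.11 CPM (235, 235 and 223 CPM in the 3 libraries), apart from endothelial-like cells at 136 ± 7.70 CPM (136, 144 and 129 CPM). Pericyte-like cells were at 111 CPM and astrocyte-like cells at 75.4 ± 2.15 CPM. In microglia-like cells it was at 0.772 CPM, from 27 UMIs in 6153 cells, which is 176 times lower than in endothelial-like cells and below the 0.929 CPM of free RNA over all sources. No UMI of *Tgfb2* was found in the 110 macrophage-like and 58 monocyte-like cells of the cortex, which allows levels of up to 4.01 and 9.12 CPM (3 UMIs over the class).

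In the hippocampus endothelial-like cells had the highest level of *Tgfb2*, 224 ± 21.6 CPM (213, 210.4 and 249 CPM), and held 53.5% of its UMIs, close to the 54.4% in the cortex. Epithelial-like cells were next at 185 CPM (203, 139.6 and 202 CPM), and at 170.4 CPM without the barcodes shared between libraries, which left 268 of 826 cells. VSMC-like cells were at 161 CPM, ependymal-like cells at 97.8 CPM, and 96.4 CPM without shared barcodes. Astrocyte-like cells at 67.7 CPM and neuron-like cells at 65.4 CPM were not apart from each other. Astrocytes thus were a sender of *Tgfb2* in both tissues, with 22.1% of its UMIs in the cortex and 13.8% in the hippocampus. Free RNA was estimated there at 0.0914 CPM from VSMC-like cells in the cortex and 2.27 CPM from endothelial-like cells in the hippocampus. Over all sources the estimates were 3.16 and 3.17 CPM. The median-ratio scaling of classes placed epithelial-like cells above endothelial-like ones in the hippocampus. *Tgfb2* overlaps 2 other genes on the opposite strand.

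*Tgfb3* (ENSMUSG00000021253, chromosome 12, 86056745 to 86079041, minus strand), the third ligand, was carried mainly by VSMC-like cells. It was at 313 ± 70.7 CPM in the cortex, with 375, 331 and 237 CPM in the 3 libraries, and at 241 ± 36.9 CPM in the hippocampus, with 209, 281 and 229 CPM. The ranges of the tissues overlapped. VSMC-like cells were 2.60% of the cortical and 1.11% of the hippocampal UMIs but held 85.8% ± 2.79 and 65.3% ± 5.93 of the UMIs of *Tgfb3*. The next class, pericyte-like cells in the cortex at 18.0 CPM, was 17.4 times lower and at background. In the hippocampus the next class was fibroblast-like cells at 9.62 CPM from 4 UMIs. The total behind these values is small, 881 UMIs in the cortex and 479 in the hippocampus.

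**Figure D1:**
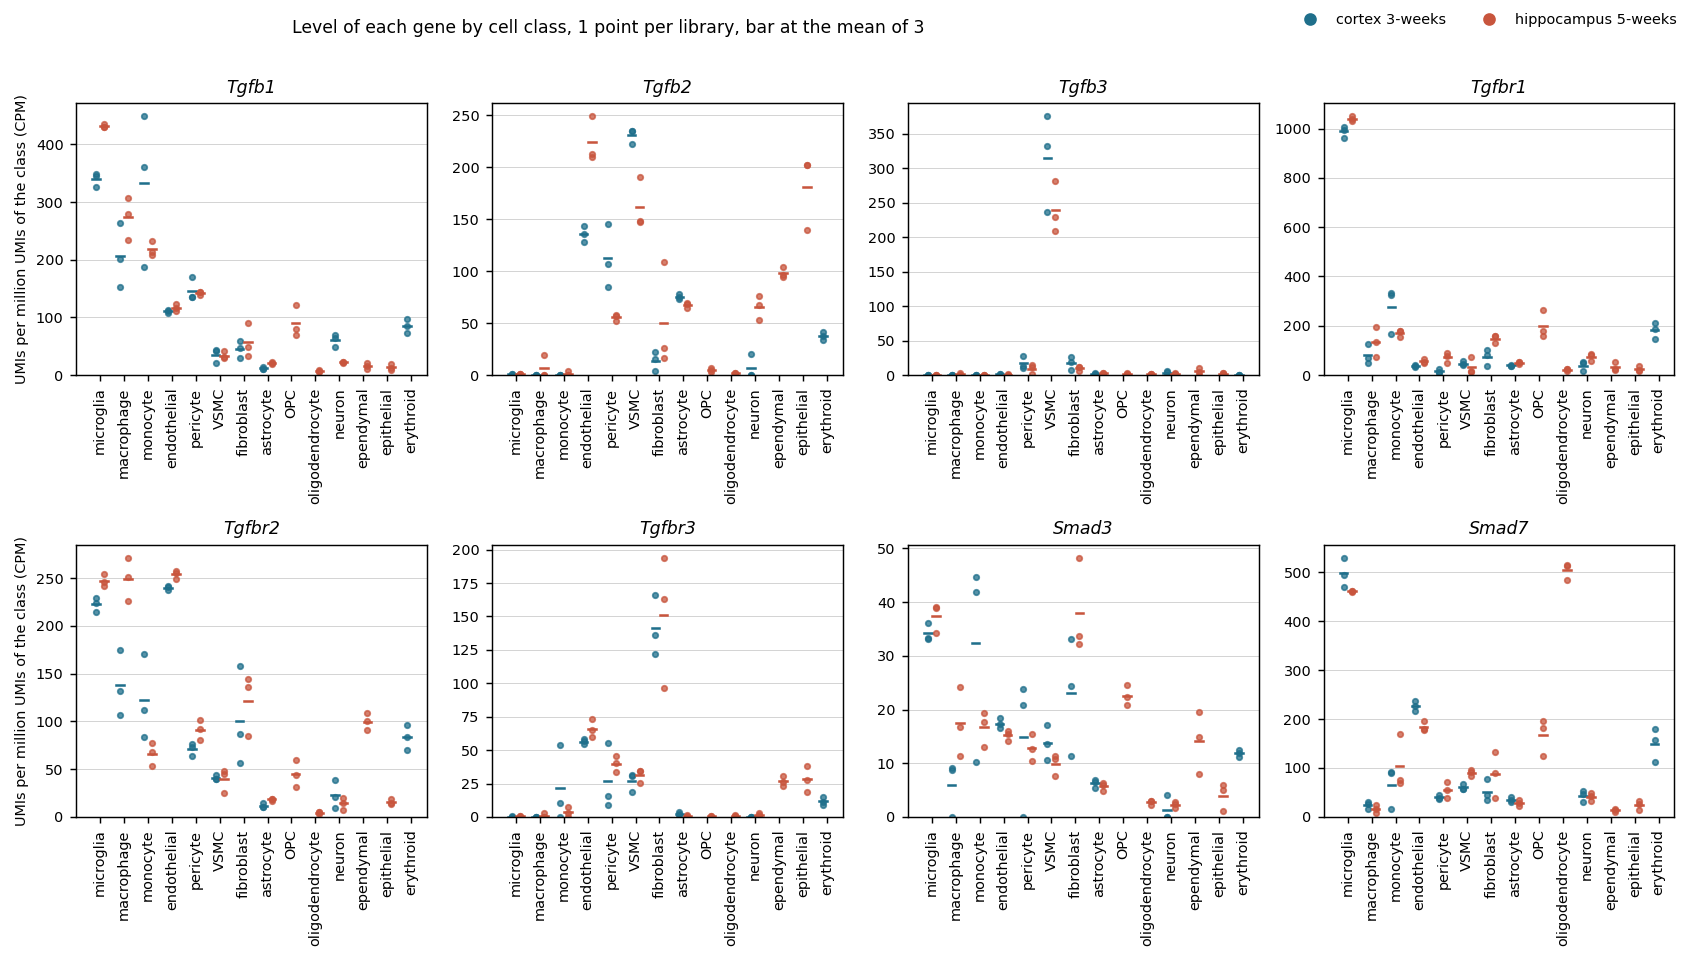
Level of each of the 8 genes (CPM, y axis, starting at 0) in each class of at least 50 cells (x axis), with 1 point per library and a bar at the mean of 3, cortex in blue and hippocampus in red. *Tgfbr1* stands out in microglia-like cells at 988 and 1040.4 CPM, *Tgfb3* in VSMC-like cells, and *Smad7* also in hippocampal oligodendrocyte-like cells at 503 CPM.

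Among the receptors, *Tgfbr1*, the signalling type I receptor, was carried mainly by microglia. In microglia-like cells it was at 988 ± 22.5 CPM in the cortex (1008, 993 and 964 CPM) and at 1040.4 ± 9.35 CPM in the hippocampus (1050.1, 1031 and 1041 CPM), so the tissues did not overlap although they differed by 0.07 on the log2 scale. These cells held 91.8% and 91.3% of its UMIs. It was found in 96.6% and 99.1% of them, and in 62.0% and 63.6% after thinning to 1000 UMIs. In endothelial-like cells the level was 37.0 and 55.3 CPM, 26.7 and 18.8 times lower. Other brain macrophages were also far lower, at 88.3 CPM in the cortex and 147 CPM in the hippocampus. By the marker ratio free *Tgfbr1* was 51.4 CPM in the cortical and 138 CPM in the hippocampal ones, so both levels were at background. The hippocampal marker ratio of 13.3% would also bring 61.5 CPM of free *Smad7*, against 17.9 CPM measured, from 14 UMIs. Scaled by the ratio of this 1 gene instead, free *Tgfbr1* would be at most 45.2 CPM in the cortex and 40.4 CPM in the hippocampus. By that estimate the hippocampal level was above background and the cortical one just within it. Which estimate holds was not tested.

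Several of the lower levels of *Tgfbr1* were close to the level estimated for free microglial RNA. Cortical erythroid-like cells were at 177 CPM, where 169 CPM was estimated as free RNA. Microglial markers stood at 17.1% of their microglia-like level in these 317 cells, whose median depth was 11280 UMIs. Of these cells 60 (18.9%) were called doublets, and the part of doublets in this level was not tested. Hippocampal OPC-like cells were at 196 CPM, where 183 CPM was estimated. Of the classes other than microglia, 3 of 9 in the cortex and 8 of 12 in the hippocampus were at background for *Tgfbr1* by the marker ratio, macrophage-like cells among them. Those above background included monocyte-like cells at 271 and 170 CPM and fibroblast-like cells at 74.5 and 147 CPM. Without shared barcodes hippocampal monocyte-like cells were at 179 CPM. Summed over all sources, free *Tgfbr1* was 85.5 CPM in hippocampal monocyte-like and 29.5 CPM in hippocampal endothelial-like cells, which puts both at background too. In the cortex the same sum put VSMC-like cells (46.3 CPM, 30.3 CPM of it free RNA) at background. It did so too for neuron-like cells (36.4 CPM, with 70.1 CPM estimated) and pericyte-like cells (15.0 CPM, with 13.9 CPM estimated).

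*Tgfbr2* (ENSMUSG00000032440, chromosome 9, 116084293 to 116175360, minus strand), the type II receptor that binds the ligand first, was shared by endothelium and microglia. In the cortex endothelial-like cells were at 240.0 ± 2.10 CPM (238, 242 and 240.1 CPM) and microglia-like cells at 223 ± 7.26 CPM (224, 229 and 215 CPM), a ratio of 1.08 between classes that were apart. In the hippocampus endothelial-like cells at 254 ± 4.49 CPM (249, 258 and 256 CPM), microglia-like cells at 247 ± 6.29 CPM (254, 246 and 242 CPM) and macrophage-like cells at 246 ± 22.7 CPM (271, 226 and 251 CPM) were not apart. Microglia-like cells held 50.4% and 63.0% of its UMIs and endothelial-like cells 37.8% and 25.4%. The order of the first classes changed with median-ratio scaling, to microglia-like cells in the cortex and macrophage-like cells in the hippocampus, and to macrophage-like cells also without hippocampus replicate 2. Fibroblast-like cells were at 106 and 115 CPM and hippocampal ependymal-like cells at 99.0 CPM, or 97.7 CPM without shared barcodes. Astrocyte-like cells were at 11.8 and 18.3 CPM, 20.3 and 13.9 times lower than endothelial-like cells, with a free RNA estimate of 3.96 and 2.58 CPM from endothelial-like cells. Over all sources the estimate was 11.4 and 13.1 CPM, since microglia-like cells add 5.64 and 9.52 CPM, and the astrocyte levels were then at background.

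*Tgfbr3* (ENSMUSG00000029287, chromosome 5, 107106570 to 107289629, minus strand), the co-receptor betaglycan that presents ligand to the type II receptor, was highest in vascular classes. It was highest in fibroblast-like cells, at 144 ± 22.5 CPM in the cortex (136, 122 and 166 CPM) and 161 ± 49.7 CPM in the hippocampus (96.4, 163 and 194 CPM). Endothelial-like cells were at 56.4 CPM in the cortex (54.4, 56.5 and 58.4 CPM) and 66.0 CPM in the hippocampus (73.2, 60.2 and 64.7 CPM) and held 71.1% and 66.6% of its UMIs. Pericyte-like cells were at 28.4 and 39.8 CPM and VSMC-like cells at 26.9 and 31.6 CPM. Hippocampal epithelial-like cells at 29.4 CPM (26.7 CPM without shared barcodes) and ependymal-like cells at 26.2 CPM (25.4 CPM without them) were not apart from VSMC-like cells. In microglia-like cells it was at 0.286 and 0.345 CPM, from 10 and 14 UMIs. The endothelial level was 197 and 192 times that of microglia. Microglia thus carried the type I and type II receptors and almost no RNA of the co-receptor. The gene overlaps 3 genes on its own strand, *Gm43422*, *Gm43423* and *Gm42900*, so some of its UMIs could belong to them.

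**Figure D2:**
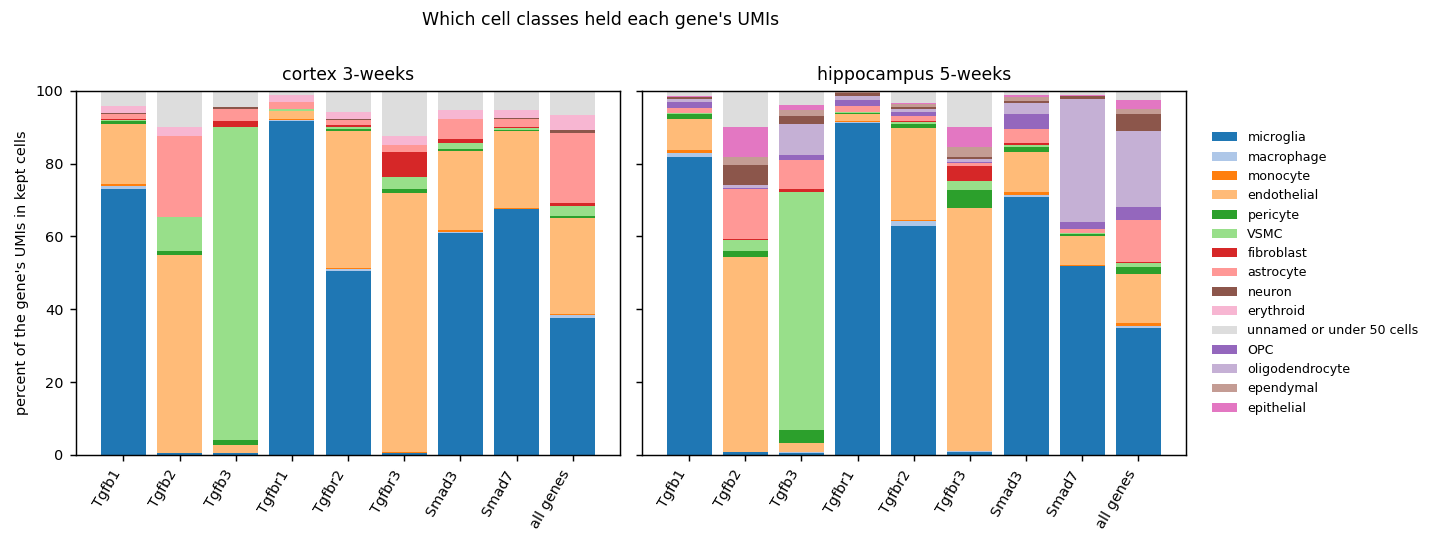
Percent of the UMIs of each gene (y axis, stacked to 100) held by each class in the cortex (left) and the hippocampus (right), with all genes together as the last bar. Microglia-like cells held 91.8% and 91.3% of *Tgfbr1* but 37.6% and 34.8% of all UMIs, and the shares depend on the cell mix of each suspension.

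*Smad3* (ENSMUSG00000032402, chromosome 9, 63646767 to 63757994, minus strand), the transcription factor that carries the signal to the nucleus, was low in every class. It was at 34.3 ± 1.60 CPM in cortical microglia-like cells (33.2, 36.1 and 33.4 CPM) and at 37.6 ± 2.73 CPM in hippocampal ones (39.1, 39.0 and 34.3 CPM), whose ranges overlapped. Endothelial-like cells were at 17.4 and 15.2 CPM and astrocyte-like cells at 6.22 and 5.75 CPM, 5.50 and 6.53 times lower than microglia-like cells. None of the 9 neighbouring pairs of classes in the cortex or the 12 in the hippocampus was apart. Microglia-like cells held 61.0% and 70.8% of its UMIs. A UMI was found in 17.0% and 22.4% of them, and in 3.17% and 3.52% after thinning, so an order of classes for *Smad3* was not detectable at this depth beyond these differences.

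*Smad7* (ENSMUSG00000025880, chromosome 18, 75367529 to 75395935, plus strand), the inhibitory Smad, had a pattern of its own. In the cortex it was highest in microglia-like cells at 498 ± 29.5 CPM (471, 494 and 529 CPM), 2.20 times the level of endothelial-like cells at 226 ± 9.81 CPM (217, 227 and 236 CPM). In the hippocampus oligodendrocyte-like cells led at 503 ± 17.2 CPM (484, 514 and 514 CPM), apart from microglia-like cells at 462 ± 1.17 CPM (461, 462 and 463 CPM). Oligodendrocyte-like cells held 33.9% of the hippocampal *Smad7* UMIs and microglia-like cells 51.9%. Thinned to 1000 UMIs, 38.1% of the oligodendrocyte-like and 34.3% of the microglia-like cells had a UMI, and the free RNA estimate in microglia-like cells was 1.03 CPM. The cortex had 43 oligodendrocyte-like cells with 933101 UMIs. This was under the preset minimum of 50 cells, so no cortical level was computed for them. OPC-like cells were at 169 CPM, where free RNA was estimated at 126 CPM over all sources, 81.2 CPM of it microglial, and thus at background. Macrophage-like cells had little *Smad7*, 22.7 and 17.9 CPM, which is 21.9 and 25.8 times less than microglia-like cells.

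Most of the lower steps in the order of classes were not apart. For *Tgfb1* 3 of 9 neighbours were apart in the cortex (pericyte-like over endothelial-like, endothelial-like over erythroid-like, and VSMC-like at 35.2 CPM, with 21.8 CPM of free RNA over all sources, over astrocyte-like cells). In the hippocampus 4 of 12 were, with the first step, microglia-like over macrophage-like cells, at 1.59 times. For *Tgfb2* 4 of 9 and 4 of 12 were apart, among them astrocyte-like cells over erythroid-like cells at 38.5 CPM in the cortex and endothelial-like over epithelial-like cells by 1.21 times in the hippocampus. The erythroid-like levels of both ligands were at background over all sources. *Tgfb1* was at 83.0 CPM with 84.5 CPM estimated as free RNA, and *Tgfb2* at 38.5 CPM with 33.6 CPM. The part of doublets in these levels was not tested. For *Tgfb3* the step below VSMC-like cells was the main one, and the other classes were at most 18.0 CPM in the cortex and 9.62 CPM in the hippocampus.

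For *Tgfbr1* the step below microglia-like cells was 3.65 times in the cortex and 5.32 times in the hippocampus, and 1 further step in each tissue was apart. For *Tgfbr2* 3 steps in each tissue were apart, among them pericyte-like at 70.3 CPM over VSMC-like cells at 40.9 CPM in the cortex. In the hippocampus pericyte-like cells were at 91.4 CPM, monocyte-like at 65.9 CPM, OPC-like at 44.8 CPM (45.7 CPM of free RNA over all sources), VSMC-like at 39.3 CPM and oligodendrocyte-like cells at 4.18 CPM (4.83 CPM of free RNA over all sources). For *Tgfbr3* fibroblast-like over endothelial-like cells was apart in both tissues, by 2.55 and 2.44 times. For *Smad7* the steps below endothelial-like cells in the hippocampus were not apart, with VSMC-like cells at 90.8 CPM, pericyte-like cells at 55.7 CPM and astrocyte-like cells at 28.8 CPM, the latter 2 at background over all sources (40.3 and 23.5 CPM).

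The class of highest level was counted for the members and, beside them, for all genes with at least 50 UMIs. In the cortex 2 of the 8 genes (*Tgfbr1* and *Smad7*) were highest in microglia-like cells by at least 2 times over the next class, as were 3.42% of 14718 genes. In the hippocampus this was 1 of 8 (*Tgfbr1*), against 2.12% of 15553 genes. Oligodendrocyte-like cells, highest for *Smad7* in the hippocampus, were not ranked in the cortex, nor were OPC-like cells. Both were under the minimum of 50 cells there, so the counts of the tissues rank unlike sets of classes. A vascular class was highest for 4 of 8 members in the cortex (*Tgfb2*, *Tgfb3*, *Tgfbr2* and *Tgfbr3*), against 37.3% of all genes. In the hippocampus it was the same 4 members, against 26% of all genes. The cortical microglia count was 1 when classes were scaled by median ratios or taken from clusters alone, and the hippocampal vascular count was 2 with median-ratio scaling.

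The genes of the pathway, except the microglial genes reported to need TGF-beta, were left out of the clustering, so no cluster was defined by the members. Over 5 cortical clusters *Tgfbr1* ranged from 877 CPM in the cluster led by *Ccl4*, *Ccl2* and *Atf3* to 1082 CPM in the one led by *Hist1h1d* and *Nav3*, a ratio of 1.23. Over 4 hippocampal clusters it ranged from 918 CPM in the cluster led by the interferon-response gene *Ifi204* to 1123 CPM, a ratio of 1.22. *Tgfb1* ranged from 309 to 351 CPM and from 385 to 454 CPM. *Smad7* was highest in the interferon cluster of the cortex at 545 CPM and in the *Ccl4*-led cluster of the hippocampus at 512 CPM. *Smad3* ranged from 29.3 to 37.3 CPM in the cortex, with overlapping libraries, and from 27.7 to 40.0 CPM in the hippocampus, 1.44 times with libraries apart. The *Ccl4*-led cluster, with early-response genes, was 11.8% of the cortical and 40.6% of the hippocampal microglia-like cells. Leaving it out of both groups moved the hippocampus over cortex log2 ratio of *Smad7* from -0.11 to -0.25 and that of *Tgfbr1* from 0.07 to 0.10.

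Endothelial cells differed more, by vessel segment. A cluster with arterial markers (*Bmx*, *Gkn3* and *Sema3g* among its leading genes) held 542 cells in the cortex and 181 in the hippocampus. *Tgfb2* was at 348 CPM in the cortical arterial cluster (352, 372 and 321 CPM) and at 89.2 CPM in the largest cluster, which had capillary and venous markers (90.7, 93.9 and 83.1 CPM). In the hippocampus it was at 567 CPM (532, 543 and 627 CPM) against 180.1 CPM in the largest, capillary cluster (175, 166 and 201 CPM). Arterial endothelium thus carried 3.90 and 3.15 times more *Tgfb2*, with no overlap of libraries in either tissue.

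The receptors split between the segments. *Tgfbr2* was higher in the arterial cluster, 326 against 226 CPM in the cortex and 293 against 251 CPM in the hippocampus. *Tgfbr3* was lower there, 33.9 against 66.8 CPM and 29.7 against 72.3 CPM. *Smad7* was higher in the arterial cluster at 327 against 213 CPM and 223 against 176 CPM, and *Smad3* lower at 8.79 against 19.7 CPM and 7.17 against 15.9 CPM. Libraries and counting intervals were apart for all of these. *Tgfb1* was at 87.7 against 98.4 CPM and 116 against 114 CPM, with counting intervals that overlapped, but was at 256 CPM in a cortical cluster of 135 endothelial-like cells led by *Adm*, *Apln* and *Lamb1* (249, 250.4 and 273 CPM). A hippocampal cluster of 265 shallow endothelial-like cells, at 0.208 times the depth of its library, held *Tgfbr1* at 321 CPM.

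**Figure D3:**
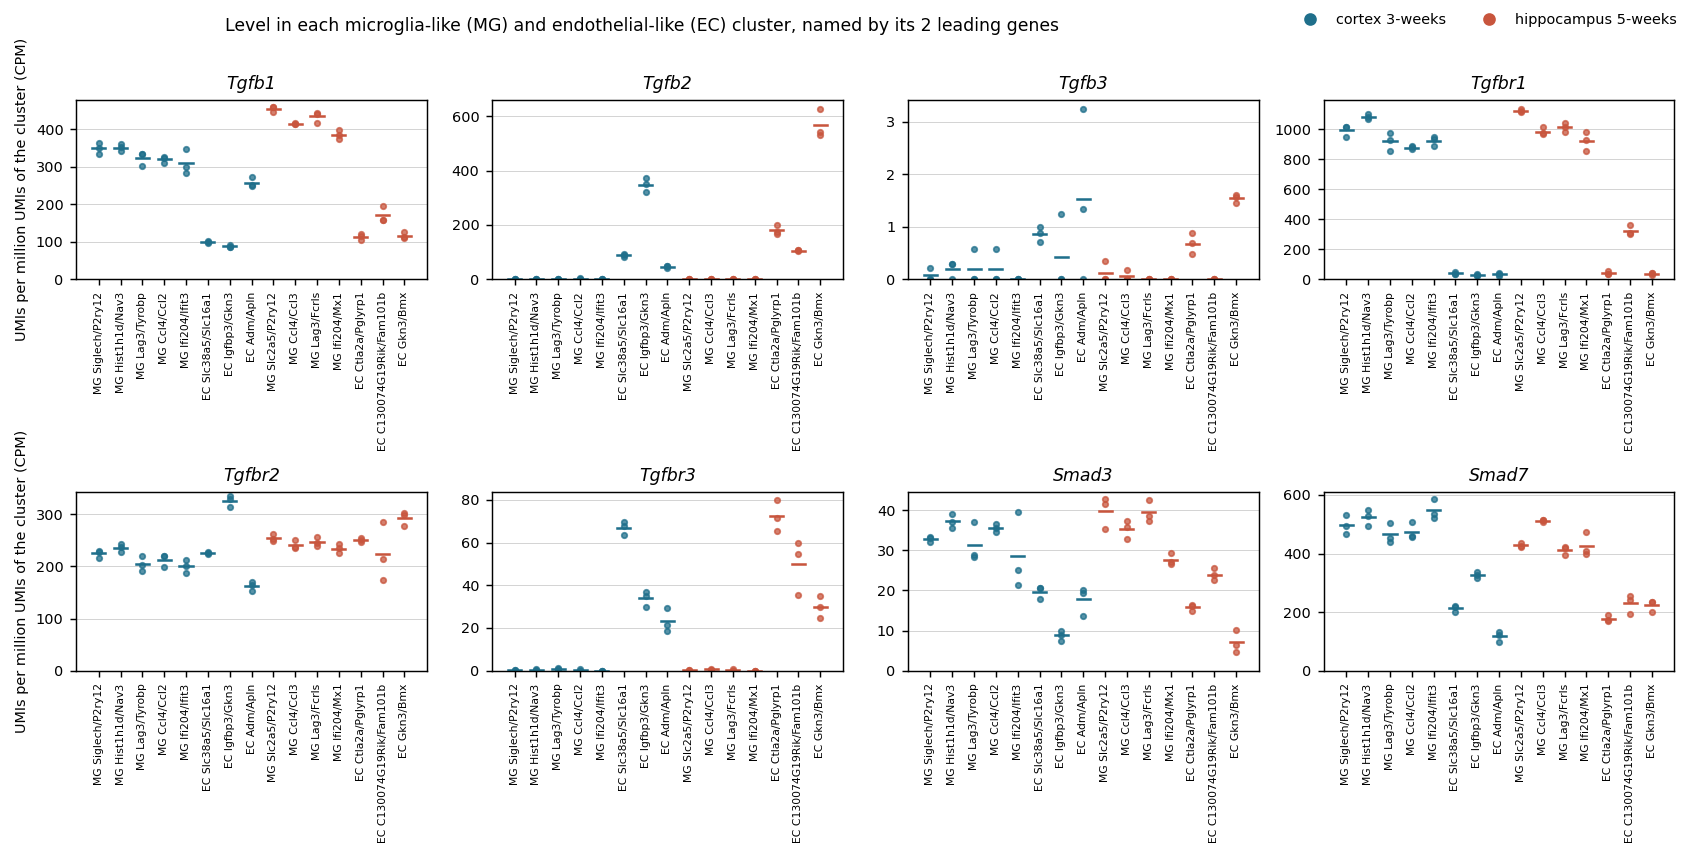
Level of each gene (CPM, y axis, starting at 0) in each microglia-like (MG) and endothelial-like (EC) cluster, named by its 2 leading genes, with 1 point per library and a bar at the mean, cortex in blue and hippocampus in red. *Tgfb2* is highest in the arterial clusters EC Igfbp3/Gkn3 at 348 CPM and EC Gkn3/Bmx at 567 CPM, and *Tgfbr1* spans 877 to 1123 CPM over the microglia-like clusters.

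The preparations were compared class by class as the log2 ratio of hippocampus over cortex, over the genes listed in both. A gene was counted as past 2-fold when the ratio exceeded 2, its counting interval left out equality and the 3 libraries of each side did not overlap. The median of all genes was 0.11 in microglia-like, 0.15 in endothelial-like, 0.10 in astrocyte-like and 0.06 in pericyte-like cells, and a ratio is best read against it.

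In microglia-like cells none of the 6 members with enough UMIs was past 2-fold, against 4.91% of 12010 genes. *Tgfb1* had a ratio of 0.34 (0.31 to 0.38), *Tgfbr2* of 0.15 (0.10 to 0.19), *Smad3* of 0.13 (0.02 to 0.24) and *Tgfbr1* of 0.07 (0.05 to 0.09). *Smad7* was at -0.11 (-0.14 to -0.08). The values of both receptors and *Smad3* lay close to the median of all genes, while *Tgfb1* lay above it and *Smad7* below, both with libraries that did not overlap. With median-ratio scaling *Tgfbr1* was at -0.04. *Tgfb2*, from 27 and 43 UMIs, was at 0.45 (-0.28 to 1.203).

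In endothelial-like cells none of 7 members was past 2-fold, against 7.1% of 11743 genes. *Tgfb2* was higher in the hippocampus by 0.71 (0.65 to 0.78), with libraries at 213 to 249 CPM against 129 to 144 CPM. *Tgfbr1* was at 0.58 (0.44 to 0.71), but at 0.16 without the shallow clusters. The 10 microglial markers, none of them at 0, summed to 966 CPM (828 to 1223 over the libraries) in these cells of the hippocampus against 428 CPM (252 to 541) in the cortex, and their part in the *Tgfbr1* ratio was not tested. *Smad7* was lower by 0.30, with a ratio of -0.30 (-0.36 to -0.23). *Tgfbr3* at 0.22, *Tgfb1* and *Tgfbr2* at 0.08 and *Smad3* at -0.20 were closer to 0.

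In astrocyte-like cells none of the 8 members was past 2-fold, against 8.26% of 12178 genes. The largest ratio on the higher side was that of *Tgfb1* at 0.87 (0.61 to 1.14), from 11.5 to 21.1 CPM, both at background. Microglial markers summed to 925 CPM in cortical and 1401 CPM in hippocampal astrocyte-like cells, with all 10 above 0. *Tgfbr2* was at 0.63 (0.35 to 0.90). With doublets left out *Tgfb1* was at 1.33 and *Tgfbr2* at 1.02, and both were past 2-fold. *Tgfb2*, the ligand that astrocytes carried above background, was at -0.16 (-0.28 to -0.03). *Tgfbr3* was at -1.34 (-2.41 to -0.39) from 40 and 12 UMIs, with overlapping libraries.

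The pericyte-like classes of the tissues were selected in unlike ways. The cortical cells were taken cell by cell from the VSMC-like cluster by their own markers, while most hippocampal ones were named by cluster. What this adds to the ratios was not tested. In pericyte-like cells 1 of 6 members, *Tgfbr1*, was past 2-fold, against 5.27% of 6949 genes. It was at 15.0 CPM in the cortex (26.0, 11.9 and 8.97 CPM, from 10 UMIs) and at 71.6 CPM in the hippocampus (87.9, 79.0 and 47.1 CPM, from 140 UMIs), a ratio of 2.26 (1.33 to 3.35). The microglial markers moved with it. All 10 were above 0 in both and summed to 156 CPM (94.0 to 214) in cortical and 1814 CPM (1311 to 2250) in hippocampal pericyte-like cells, and the hippocampal *Tgfbr1* level was at background, with 52.6 CPM estimated as free RNA. The cortical level was at background over all sources (13.9 CPM). Their part in the ratio was not tested. At a clustering resolution of 1.0 the ratio was 0.89 and not past 2-fold. *Tgfb2* was lower in hippocampal pericyte-like cells, 55.7 against 111 CPM, with a ratio of -0.99 (-1.43 to -0.55) just inside the limit and libraries that did not overlap. It was past the limit in 8 of 16 alternatives, among them those without shared barcodes, with a mitochondrial limit of 10%, with median-ratio scaling and without cortex replicate 2 or 3 or hippocampus replicate 1 or 3.

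Among smaller classes, *Tgfb2* in VSMC-like cells was at -0.52 (-0.76 to -0.29) and *Smad7* at 0.59 (0.23 to 0.95), both with libraries apart. *Tgfb3* in VSMC-like cells was at -0.38 (-0.57 to -0.19) with overlapping libraries. The cortical VSMC-like cells were those left in their cluster after the pericyte-like cells were taken out. Of these, 30 of 210 were called doublets, against 0 of 101 in the hippocampus. Pericyte markers stood at 3.90% of their pericyte-like level in cortical and 0.833% in hippocampal VSMC-like cells. What this adds to the VSMC-like ratios was not tested. *Tgfbr2* in macrophage-like cells was higher in the hippocampus by 0.88 (0.52 to 1.24), where the median of all genes was 0.25. In monocyte-like cells *Tgfbr2* was at -0.88 (-1.50 to -0.26), where the median was -0.15. Its hippocampal level there was 67.5 CPM without shared barcodes. *Tgfbr1* in fibroblast-like cells was at 0.98 (0.45 to 1.50), where the median was 0.08. Libraries were apart for these *Tgfbr2* and *Tgfbr1* ratios. Free *Tgfbr1* from microglia-like cells was estimated at 9.28 of 74.5 CPM in cortical and 65.9 of 147 CPM in hippocampal fibroblast-like cells. Its part in the ratio was not tested. Neuron-like cells were past 2-fold for *Tgfb2* at 3.38 (2.14 to 5.01) and *Tgfbr1* at 1.04 (0.50 to 1.64), and on the lower side for *Tgfb1* at -1.48 (-1.97 to -0.97), in a class where 20.1% of 10246 genes were past 2-fold and the median was 0.29. The cortical neuron-like class was 98 cells that also held T and NK cells by their own markers, so these ratios compare unlike mixtures, and the hippocampal *Tgfbr1* and *Tgfb1* levels of neuron-like cells were at background.

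The other genes of the pathway, 87 genes on 7 lists, were placed by the class of their highest level. Classes under 50 cells were not ranked, among them the OPC-like and oligodendrocyte-like cells of the cortex. A vascular class was highest for 44 of 82 measured genes in the cortex and 36 of 81 in the hippocampus, against 37.3% and 26% of all genes. Microglia-like cells were highest for 20 and 17, against 12.2% and 9.27% of all genes. In each tissue 10 of these were among the 11 microglial genes reported to need TGF-beta. Several of those served as markers for the name of the class, so the total follows in part from the name. In the cortex microglia-like cells led 2 of 13 latency genes, 1 of 10 other receptors and 0 of 6 other Smads. They also led 5 of 16 regulators, 1 of 11 other ligands and 1 of 15 induced genes there. In the hippocampus the counts in this order were 2 of 13, 0 of 10, 1 of 6, 3 of 16, 0 of 10 and 1 of 15. Outside the microglial list, the share led by microglia-like cells was thus close to that of all genes. Of the genes for latency, activation and storage, vascular cells led 8 of 13 in the cortex and 9 of 13 in the hippocampus. *Ltbp4*, a latency-binding protein, was highest in endothelial-like cells (599.6 and 708 CPM) and *Ltbp1*, which tethers latent TGF-beta to the matrix, in VSMC-like cells (279.6 and 325 CPM). *Itgb5*, an integrin subunit, was highest in microglia-like cells (867 and 1066 CPM). *Nrros*, named after its values were seen because it presents latent TGF-beta on microglia and macrophages, was highest in monocyte-like cells of the cortex (201 CPM) and macrophage-like cells of the hippocampus (239 CPM).

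Of 10 other receptors of the superfamily, vascular classes led 5 in each tissue. For this count and that of the Smads, the shares of all genes were 37.3% in the cortex and 26% in the hippocampus. *Eng* (803 and 648 CPM), *Bmpr2* (428 and 417 CPM) and *Acvrl1* (377 and 468 CPM), the receptors of bone morphogenetic protein signalling in endothelium, were all highest in endothelial-like cells. Of 6 other Smads, 5 and 2 were highest in vascular cells, at levels of at most 89.2 CPM for *Smad4* in the cortex and 114 CPM for *Smad5* in the hippocampus. Of the regulators, *Pmepa1*, which dampens Smad signalling, was highest in microglia-like cells (797 and 945 CPM) and *Bgn*, a matrix proteoglycan that binds TGF-beta, in fibroblast-like cells (608 and 885 CPM). *Fkbp1a*, which holds type I receptors inactive, was highest in endothelial-like cells of the cortex (475 CPM) and, like *Smad7*, in oligodendrocyte-like cells of the hippocampus (836 CPM). The 43 oligodendrocyte-like cells of the cortex were under the minimum of 50 cells and were not ranked.

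Of the other ligands of the superfamily, vascular classes led 8 of 11 in the cortex and 5 of 10 in the hippocampus. For this count and that of the induced genes, the shares of all genes were 37.3% and 26%. *Nodal* was highest in pericyte-like cells (136 and 229.9 CPM), *Bmp7* in fibroblast-like cells (199 and 188 CPM) and *Bmp6* in cortical fibroblast-like cells (281 CPM). *Bmp4* was highest in fibroblast-like cells of the cortex (208 CPM) and in OPC-like cells of the hippocampus (743 CPM). The 33 OPC-like cells of the cortex were under the minimum of 50 cells and were not ranked. Vascular classes also led 11 of 15 genes that TGF-beta is known to induce in both tissues, with *Tagln*, a contractile protein gene, at 11914 and 13442 CPM in VSMC-like cells, *Col4a1* at 3026 and 1385 CPM in pericyte-like cells, and *Id1* at 1833 and 1313 CPM in endothelial-like cells. Of 11 microglial genes reported to need TGF-beta, 10 were highest in microglia-like cells in each tissue, among them *P2ry12* and *Fcrls*. Several of these also served as markers for the name, so this count follows from it.

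**Figure D4:**
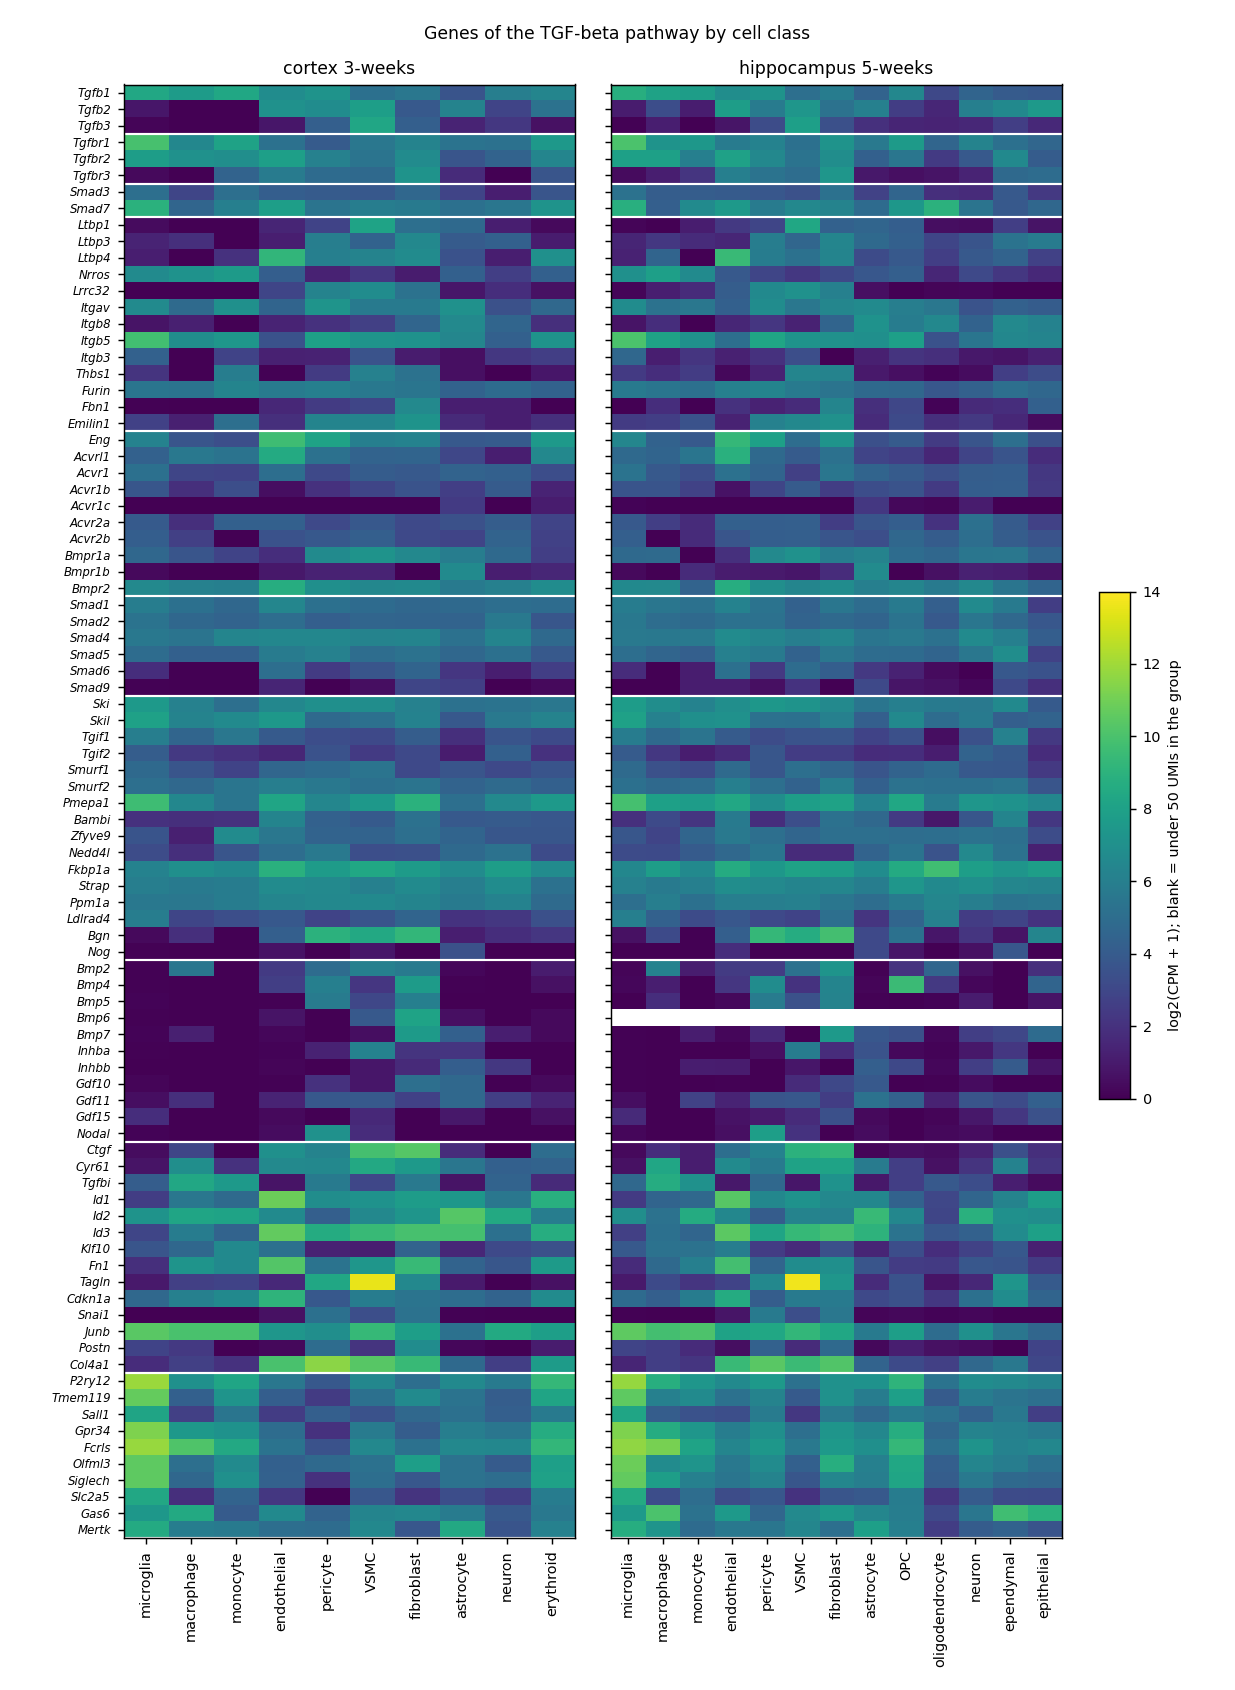
Level of the listed genes (rows, grouped by list with white lines between) in each class (columns), cortex left and hippocampus right, as log2(CPM + 1) from 0 in dark to 14 in yellow. Levels are read along a row, and a blank row had under 50 UMIs in that tissue (*Bmp6* in the hippocampus).

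Between the preparations, the genes of these lists were counted by the same 2-fold rule. In endothelial-like cells 12 of 67 were higher in the hippocampus and 2 lower, against 4.45% and 2.66% of all genes. Microglial markers summed to 428 CPM in the cortex and 966 CPM in the hippocampus in these cells, and the 9 pericyte markers, none at 0, to 385 CPM (343 to 422 over the libraries) and 514 CPM (465 to 595). Their part in these ratios was not tested. The higher ones included *Itgb5* at 1.61, *Tagln* at 1.54, *Lrrc32*, which tethers latent TGF-beta to the cell surface, at 1.37 and *Ltbp1* at 1.23, and 8 were microglial genes such as *P2ry12* at 1.08. The lower ones included *Ctgf*, a matricellular growth factor gene, at -1.996. In astrocyte-like cells, where 5.09% of all genes were higher and 3.17% lower, 6 of 67 were higher, led by *Bgn* at 2.58, *Inhba* at 1.66, *Tgif1* at 1.19, *Pmepa1* at 1.15, *Fbn1* at 1.14 and *Tgif2* at 1.11, and 1 was lower, the cell cycle inhibitor *Cdkn1a* at -2.03. Microglial markers summed to 925 CPM in cortical and 1401 CPM in hippocampal astrocyte-like cells, and *Pmepa1* was highest in microglia-like cells. The part of free microglial RNA in the astrocyte-like ratios was not tested. In pericyte-like cells 10 of 49 were higher and 3 lower, against 3.6% and 1.67% of all genes. These classes were selected in unlike ways, the cortical cells from the VSMC-like cluster by their own markers. Microglial markers went from 156 to 1814 CPM in these cells. The part of the selection and of the markers was not tested. Of the higher ones 8 were microglial genes, such as *Gpr34* at 5.40, beside *Junb* at 1.43 and *Smad2* at 1.03. The lower ones were *Tagln* at -1.84, *Col4a1* at -1.13 and *Tgfbi* at -1.04.

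The genes most alike to each member were found by Pearson's r of log2(CPM + 1) over 18 points, 9 classes in 2 tissues, among 12147 genes. The points of a tissue share libraries, so the values are descriptions. *Tgfbr1* was most like *Smap2* at 0.97, followed by *Spint1*. *Tgfb3* was most like *Ppp1r12b* at 0.97, followed by *Ccdc3* and *Adamtsl1*. *Tgfb1* was most like *9930111J21Rik2* at 0.96, followed by *Psme2b* and *Nfkb1*. *Tgfb2* was most like *Tspan12* at 0.95, followed by *Crip2* and *Ccser2*. For *Tgfbr2* these genes were *Dusp7*, *Ifnar2* and *Wasf2* with a highest value of 0.93, and for *Tgfbr3* they were *Akap12*, *Adamts10* and *Cgnl1* with 0.92. The values were lowest for *Smad3*, with *1600014C10Rik*, *Rrbp1* and *Il13ra1* at up to 0.87, and for *Smad7*, with *F11r*, *Ecscr* and *Herc2* at up to 0.84. Among the members themselves the highest value was 0.81, between *Tgfb1* and *Tgfbr2*, and the lowest was -0.72, between *Tgfb2* and *Tgfbr1*.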

How the data were processed

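Per the labels and methods, the authors aligned reads to mm10 with Cell Ranger 5.0.1, and the deposited matrices hold UMI counts per gene and cell barcode with no normalization (their headers name software 3.0.1 for the cortex and 3.1.0 for the hippocampus). The cortical files list 31053 genes and the hippocampal files 27998. Cells with 250 to 6000 genes and under 25% mitochondrial UMIs were kept, and genes seen in at least 3 cells. Each group was log-normalised to 10000, integrated over its libraries by canonical correlation on 2000 variable genes and clustered with 30 dimensions at resolution 0.5 in Seurat 5.3.0 (R 4.3.3, Matrix 1.6.5). The pathway genes were left out of the clustering, except the microglial genes reported to need TGF-beta. A cluster took the name of a class when 3 or more markers of that class passed in it. To pass, a marker had to occur in 20% or more of the cluster's cells. Its level there also had to reach 2 times its level in the other clusters, after 5 CPM was added to both levels. After the data were seen, a cell was moved to another class when its own marker UMIs named that class. The class also had to have at least 3 markers in the cell's cluster. This moved 227 cells (1.70%) in the cortex and 83 (0.584%) in the hippocampus. Of 26125 cells named both by clusters and by own markers, 96% then had the same class. Barcodes were scored by Scrublet (scanpy 1.11.5), and the highest-scoring ones of each library were called doublets. Their number was preset from the barcode count and an expected rate of 0.8% per 1000 cells, so it does not measure how many doublets there were. Of the kept cells 765 in the cortex (5.74%) and 556 in the hippocampus (3.91%) were called, and they were left out only in an alternative.

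UMIs were summed per class and library with Python 3.11.15, NumPy 2.4.6, pandas 2.3.3 and SciPy 1.17.1, and plotted with matplotlib 3.10.9. Classes had at least 50 cells and genes at least 50 UMIs. Intervals at 95% were exact Poisson for levels, Clopper-Pearson for shares and conditional binomial for ratios. For free RNA the median ratio of a source class's markers was multiplied by the gene's level in its highest class, and, as an addition made after the data were seen, summed over all source classes. Scripts were tested on simulated data. The 8 genes, the lists and the markers were chosen with earlier results of these data known. The text names the 8 members, list genes past the 2-fold rule, up to 3 genes a list with the highest CPM in their class, and the 3 genes most alike to each member (at least 200 UMIs in each group). Alternatives changed the cell filter, doublets, shared barcodes, depth, scaling, clustering and class names, and left out each library. Gene positions are from GENCODE M21 on GRCm38. Promoter windows were examined for 5 of the 8 members. Prep 2 was not analysed here. A few genes that these rules pick are not reported here.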

Additional observations from a re-analysis of the deposited data

How the results depend on the processing

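No paired analysis was possible because the results come from no test, and the replicate numbers shared by the groups only count technical replicates of 2 separate suspensions. Of 134 counts of members under the alternatives, 118 stayed within 1.5 times the reported count. With doublets left out, 2 members were past 2-fold in astrocyte-like cells in place of 0. In pericyte-like cells the count of 1 became 2 without shared barcodes, 2 with a mitochondrial limit of 10% and 2 with median-ratio scaling. *Tgfb2* was the gene gained each time. It became 3 with the pathway genes kept in the clustering (*Tgfb2* and *Smad7* gained) and 0 at resolution 1.0. The count was also 0 after thinning, but *Tgfbr1* then had too few UMIs to be counted. No value could be had from clusters alone, since cortical pericytes fell in the VSMC-like cluster. *Tgfbr1* in pericyte-like cells ranged from 0.89 to 2.77 on the log2 scale and was past 2-fold in 15 of 16 settings. The cortical microglia count of 2 became 1 with median-ratio scaling and 1 from clusters alone, and the hippocampal vascular count of 4 became 2 with median-ratio scaling. Leaving out 1 library gave 0 to 1 members in astrocyte-like and 1 to 3 in pericyte-like cells. Of 237 levels 205 and of 462 log2 ratios 429 moved by less than the spread between libraries. These totals overstate the stability, since some of the outcomes were fixed in advance. Leaving out 1 library can hardly shift a mean by more than the SD of the libraries. Lifting the minimum for a gene kept the same cells, so it could hardly move a level or ratio either. The ratio of *Tgfbr1* in pericyte-like cells, the one counted as past 2-fold, kept its sign in every alternative that gave a value, while 17 values of other ratios changed sign. In pericyte-like cells these were 5 of *Tgfb1*, 2 of *Tgfbr2* (lowest -0.89), 2 of *Smad7* (lowest -1.53) and 1 of *Tgfbr3*, and in microglia-like cells 1 each of *Tgfb2* (-0.13) and *Tgfbr1* (-0.04), and the other 5 lay in endothelial-like and astrocyte-like cells. After thinning, *Tgfb1* and *Smad3* were highest in monocyte-like cells of the cortex. With a mitochondrial limit of 10%, the astrocyte-like ratios were 0.29 for *Tgfb1* and 0.23 for *Tgfbr2*. The causes were not tested. Depth limits *Tgfb3*, *Tgfbr3* and *Smad3*, and each group is 1 pooled suspension.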
